A study of Mus musculus with 6 samples.

Results

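The genes described here carry a secretagogue signal in the pancreatic acinar cell from its receptor to calcium. They are 10 of the 10245 genes in the deposited RNA-seq table. The choice was by their role in the pathway and not by how they moved, but earlier results of these data were known. They comprise the receptors Cckar, Chrm1 and Chrm3, the calcium release channels Itpr1, Itpr2 and Itpr3, the pumps Atp2a2 and Atp2b1, and the store-operated entry genes Stim1 and Orai1. All 10 were present in the table. Each passed the low-value filter, which removed no gene.

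The libraries came from whole pancreas of 3 control mice of genotype Ptf1a(CreER/+) and 3 Ptf1a cKO mice of genotype Ptf1a(CreER/fl). PTF1A is a transcription factor that drives acinar gene expression, and the CreER allele sits in the Ptf1a locus and inactivates it. The control mice were therefore functionally heterozygous for Ptf1a, and the Cre was active in the acinar cells, which express Ptf1a. Mice of both groups received tamoxifen by gavage at 0.25 mg/g on 3 days and were sacrificed on day 14. Each group held 1 male and 2 females. The control mice were 4 months old and the Ptf1a cKO mice 5 months old, so age and genotype cannot be told apart. Each library came from a separate mouse.

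Acinar cells secrete digestive enzymes when cholecystokinin or acetylcholine binds receptors that couple to Gq. Gq activates phospholipase C beta, which makes inositol trisphosphate (IP3), and IP3 opens IP3 receptors in the endoplasmic reticulum. The released calcium triggers exocytosis at the apical pole, while SERCA and plasma membrane pumps clear it and STIM and ORAI proteins refill the store. The type 2 and type 3 IP3 receptors are the ones best known from acinar cells, where they sit near the apical membrane.

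The promoters of Itpr2 and Itpr3 are shown because these paralogs moved by different amounts in the comparison below. The PTF1 complex binds an E-box (CANNTG) beside a second box with the core TGGGAA, or TTCCCA on the other strand. Both boxes were searched on both strands in the 250 bases before the RefSeq start of each gene, in build GRCm38.p6, and matches are in capitals. The window of Itpr2 is chr6:146502224-146502473 on the minus strand, and that of Itpr3 is chr17:27057054-27057303 on the plus strand.
Itpr2: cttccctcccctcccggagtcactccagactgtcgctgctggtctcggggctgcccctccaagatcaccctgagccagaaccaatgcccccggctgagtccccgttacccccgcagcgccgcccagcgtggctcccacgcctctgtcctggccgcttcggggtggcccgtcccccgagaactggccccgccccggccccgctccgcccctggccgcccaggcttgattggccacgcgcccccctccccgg
Itpr3: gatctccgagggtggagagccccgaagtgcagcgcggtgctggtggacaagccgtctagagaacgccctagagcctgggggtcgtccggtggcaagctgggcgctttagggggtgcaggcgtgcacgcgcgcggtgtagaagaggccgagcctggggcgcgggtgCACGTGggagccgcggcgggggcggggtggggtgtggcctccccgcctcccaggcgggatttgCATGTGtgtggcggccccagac
The Itpr2 window held neither motif, and 74.4% of its bases were G or C. The Itpr3 window held E-boxes with the letters CACGTG and CATGTG and no TGGGAA, and its G and C content was 72.0%. Of 32851 windows of this length, 66.2% held CANNTG, 21.6% held TGGGAA or TTCCCA, and 14.8% held both. Windows were found for 6 of the 10 genes. Of the rest, those of Stim1 (CAGTTG) and Orai1 (CAGCTG) each held an E-box, those of Chrm3 and Atp2b1 held none, and none held TGGGAA. A match is a run of letters and was not tested as a binding site.

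Values are normalized read counts. How the authors scaled them is not given in the sources used here, and the median gene lay between 125.0 and 128.5 in every library. The totals over all genes were 17949900 to 21175800 in control and 5527100 to 8981110 in Ptf1a cKO libraries and are not sequencing depths. Ptf1a stood at 566, 601 and 652 in the control libraries and at 19.8, 70.1 and 10.2 in Ptf1a cKO libraries 1, 2 and 3. Each library thus matched its genotype label. The 32 acinar enzyme genes in the table took 83.6% to 86.1% of the normalized counts assigned to genes in a control library and 39.4% to 66.1% in a Ptf1a cKO library. Ptf1a cKO replicate 2 kept the most Ptf1a and the most enzyme RNA. In whole tissue, fewer acinar cells and less RNA per acinar cell cannot be told apart.

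All 3 IP3 receptor genes rose in the Ptf1a cKO pancreas, Itpr2 the most, and the muscarinic receptor gene Chrm1 fell. The other 6 genes did not pass the threshold, which was an adjusted p under 0.05 by limma with Benjamini-Hochberg adjustment over all 10245 genes. Among all genes, 17.1% were higher and 16.8% lower at this threshold, and 33.9% were called in either direction, against 3 higher and 1 lower of the 10. The median log2 fold change of the 10 was −0.03, and that of all genes was 0.04. In 5 of the 10 the groups did not overlap, and 50.8% of all genes had groups that did not overlap. The calls for Itpr1 and Itpr2 held in each of the 6 fits that left out 1 library, while those for Chrm1 and Itpr3 held in 3 and 2 of them.

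Under another scaling, in which every library was given the same total, the median gene moved to 1.48 on the log2 scale and 9587 genes were higher. All 10 genes were then higher too, including Chrm1. This scaling moves every gene upward by about the same amount, so a rise keeps its sign by construction and a fall smaller than the shift turns. Log2 differences on that scale are therefore to be read against the shifted median. The scaling to the same 75th percentile and the median of ratios reversed none of the calls in the 10 genes or in the lists around them.

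**Figure D1:**
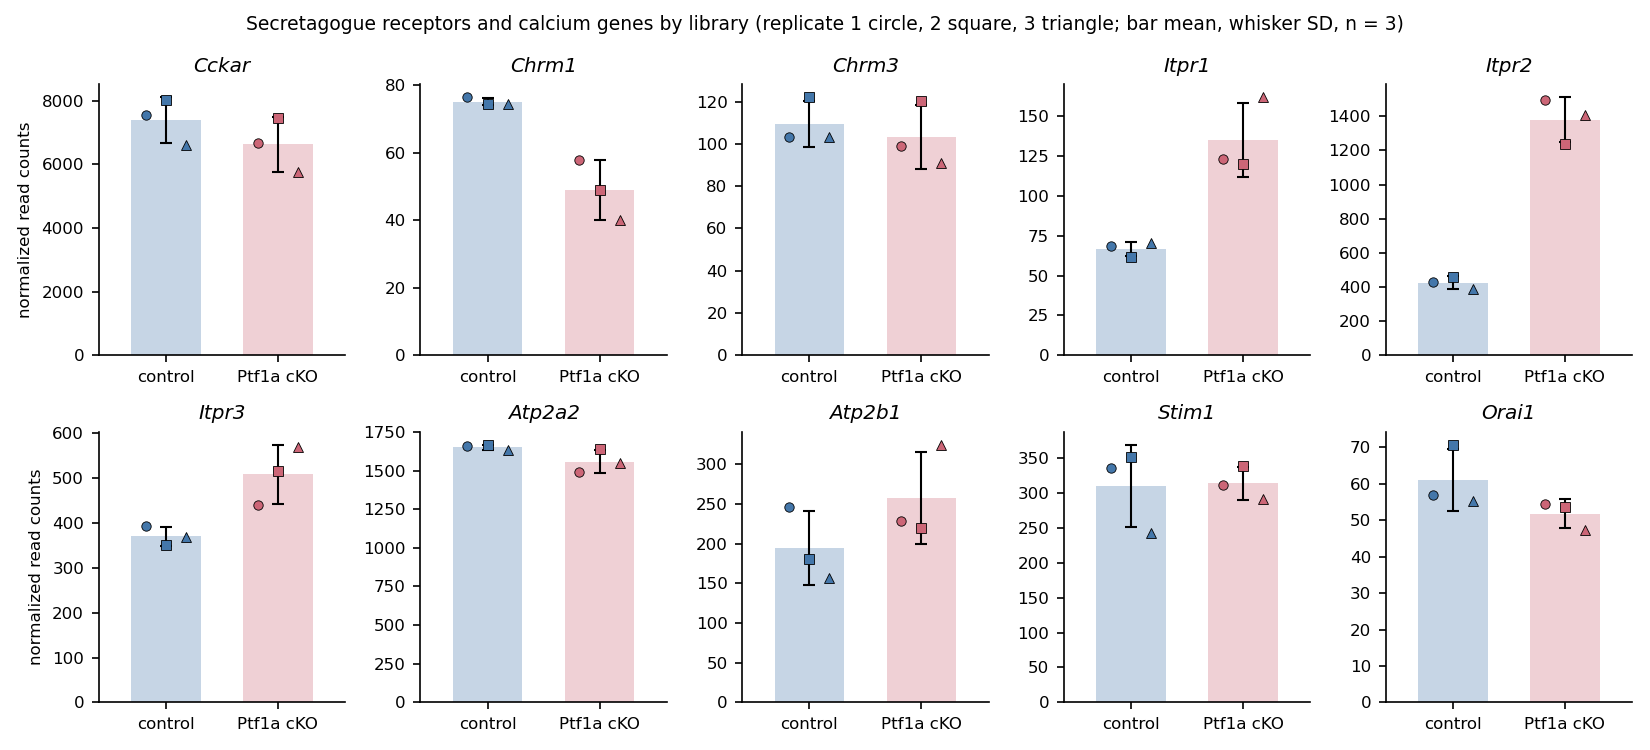
Normalized read counts (vertical axis, linear, from 0) of the 10 genes in each library, with control libraries in blue and Ptf1a cKO libraries in red. Points are mice, with replicate 1 as a circle, 2 as a square and 3 as a triangle. Bars are means and whiskers SD of 3 mice. Itpr1, Itpr2 and Itpr3 are higher and Chrm1 lower in every Ptf1a cKO library, whereas the groups of Cckar, Chrm3, Atp2a2, Atp2b1 and Stim1 overlap.

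The receptors were compared first. Cckar encodes the cholecystokinin receptor of the rodent acinar cell. It stood at 7544, 8026 and 6627 normalized counts in control libraries 1, 2 and 3 and at 6682, 7462 and 5750 in Ptf1a cKO libraries 1, 2 and 3. The groups overlapped, and the lowest value was that of Ptf1a cKO replicate 3. The log2 fold change was −0.16 ± 0.16 (SE, n = 3 and 3), with an adjusted p of 0.470 by limma. The 95% interval of the fold ran from 0.693 to 1.15. By its mean in the control libraries Cckar ranked 46 of the 10245 genes.

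Chrm3 encodes the muscarinic receptor through which acetylcholine acts on acinar cells. It stood at 103.2, 122 and 103.0 in control and at 99.0, 120.3 and 90.9 in Ptf1a cKO libraries. Replicate 2 was the highest in both groups, and the groups overlapped. The log2 fold change was −0.08 ± 0.14 (SE), with an adjusted p of 0.680 by limma and a 95% interval of the fold from 0.753 to 1.18. Cckar and Chrm3 had the most similar profiles of any pair among the 10 genes, with a root mean square difference of 0.0767 in centred log2 values over the 6 libraries. Neither gene was called, and this measure mostly reflects the size of the group difference.

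Chrm1, which encodes the second muscarinic receptor found in acinar cells, differed from Chrm3. It stood at 76.4, 74.5 and 74.6 in control and at 58.0, 48.9 and 40.2 in Ptf1a cKO libraries. All 3 control libraries lay above all 3 Ptf1a cKO libraries, and the control values were nearly equal. Chrm1 fell by 0.60 on the log2 scale (SE 0.17), to 0.661 of the control level, with an adjusted p of 0.0222 by limma. The call was lost without control replicate 1 (adjusted p = 0.0698), without control replicate 2 (0.0658) or without Ptf1a cKO replicate 3 (0.0710), and its sign turned under the same-total scaling (0.82).

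The ratio of Chrm1 to Chrm3 within a library does not depend on the scaling. Its log2 value was −0.43, −0.71 and −0.47 in control and −0.77, −1.30 and −1.18 in Ptf1a cKO libraries, so the groups did not overlap. The mean difference was −0.55, with an exact two-sided permutation p of 0.10, the smallest that 3 against 3 allows. The same p was found for Cckar over Chrm1, whose log2 ratio was higher by 0.47. Both p-values were 0.188 after Benjamini-Hochberg adjustment over 15 ratios. The log2 ratio of Cckar to Chrm3 differed by −0.07 between the groups, which overlapped (exact p = 0.40).

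Among other secretagogue receptors, Sctr encodes the secretin receptor, which raises cAMP and is prominent on duct cells. It stood at 20.6, 12.9 and 4.55 in control and at 298, 245 and 284 in Ptf1a cKO libraries. Sctr thus differed by 4.25 ± 0.34 (SE) on the log2 scale, with an adjusted p of 8.44e-05 by limma. Every gene in the table reached at least 27.6 in some library, so Sctr was in the table only through its Ptf1a cKO libraries and had to differ. Per kilobase of exon it went from the 20th to the 3rd place among 21 receptor and calcium transport genes compared.

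Vipr1, a receptor for vasoactive intestinal peptide, stood between 205 and 231 in control and between 47.8 and 63.0 in Ptf1a cKO libraries. It fell by 1.94 on the log2 scale (SE 0.14, adjusted p = 4.31e-05 by limma) and kept its sign under the same-total scaling. The insulin receptor gene Insr was 0.50 lower in log2 (adjusted p = 0.00590), and its sign turned under that scaling (0.99). The gastrin receptor gene Cckbr ranged from 27.0 to 45.1 in control and from 21.2 to 40.0 in Ptf1a cKO libraries and did not pass the threshold (−0.28 ± 0.29 SE, adjusted p = 0.490). Vipr2 was not called either, with 0.00 ± 0.15 on the log2 scale. Of the 9 other receptors in the table, 1 was higher and 2 lower, against 17.1% and 16.8% of all genes.

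Between receptor and IP3, of 23 genes for G proteins, phospholipases and their regulators, 6 rose and 7 fell (26.1% and 30.4%, against 17.1% and 16.8% of all genes). Of the 6 that rose, 1 was in the table only through its Ptf1a cKO libraries, like Sctr, and had to differ. Leaving out Ptf1a cKO replicate 3 gave 3 rises. Leaving out replicate 1 or 3 of either group gave 4 falls. All 7 falls kept their direction under the other scalings except that of the same total, which turned 6 of them. Gna14, a Gq family alpha subunit, was at 155 to 205 in control and 63.5 to 83.7 in Ptf1a cKO libraries, a fall of 1.24 in log2 (SE 0.16, adjusted p = 6.20e-04). Plcb4, a phospholipase C beta, fell by 1.49 (SE 0.20, adjusted p = 8.20e-04), with −0.05 under the same-total scaling. Itpka, which phosphorylates IP3 and so ends its action, fell by 1.37 (SE 0.22, adjusted p = 0.00185).

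Among the genes of this group that rose, Rgs2, which speeds the shut-off of Gq, went from 34.5 to 51.0 in control to 116 to 189 in Ptf1a cKO libraries. Its log2 fold change was 1.65 ± 0.21 (SE), with an adjusted p of 6.20e-04 by limma. Itpkb, a paralog of Itpka, rose by 1.23 (SE 0.21, adjusted p = 0.00234), while the paralog Itpkc fell by 0.80 (SE 0.18, adjusted p = 0.00990). The same-total scaling put Itpka at 0.06 and Itpkc at 0.65. Arrb2, an arrestin that ends receptor signaling, rose by 0.71 (SE 0.13, adjusted p = 0.00307). The calls for these 7 genes held in each fit without 1 library.

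**Figure D2:**
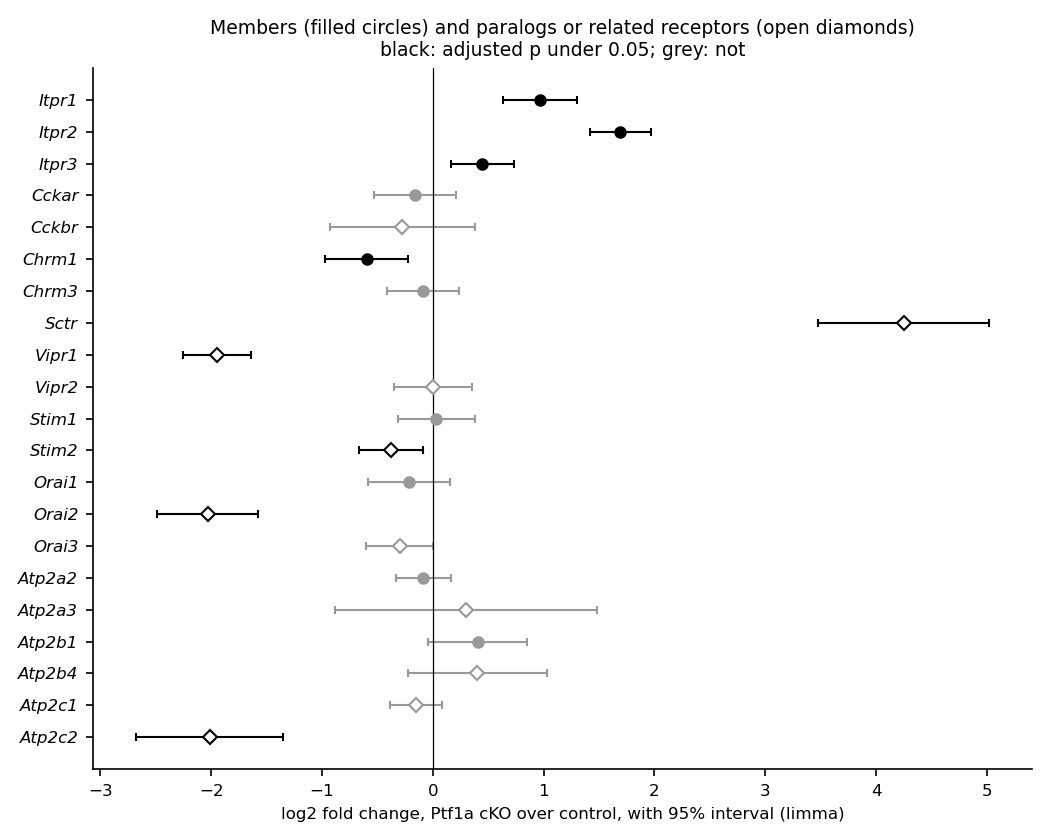
Log2 fold change of Ptf1a cKO over control (horizontal axis) with its 95% interval from limma, for the 10 genes (filled circles) and for paralogs and related receptors (open diamonds). Black marks an adjusted p under 0.05 and grey the rest. Itpr1, Itpr2 and Itpr3 lie right of 0 and Chrm1 left of it, while Sctr (4.25) and Orai2 (−2.03) lie further out than their relatives among the 10. With libraries scaled to the same total, all 10 genes lie right of 0, Orai2 stays left of it (−0.56) and the median gene is at 1.48.

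The IP3 receptor genes were the release channels compared. Itpr2 stood at 430, 458 and 385 normalized counts in control libraries 1, 2 and 3 and at 1496, 1240 and 1408 in Ptf1a cKO libraries 1, 2 and 3. The lowest Ptf1a cKO value, that of replicate 2, was still far above the highest control value. Itpr2 rose by 1.69 on the log2 scale (SE 0.12), or 3.24-fold (95% interval 2.67 to 3.92), with an adjusted p of 4.86e-05 by limma. Among all 10245 genes it ranked 41 by p-value and 213 by log2 fold change. Without 1 library at a time the log2 fold change lay between 1.63 and 1.77, and it was 1.52 when libraries were given the same total without the acinar enzymes.

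Itpr1 encodes the IP3 receptor that is dominant in neurons. It stood at 68.3, 61.8 and 70.4 in control and at 123, 120 and 162 in Ptf1a cKO libraries. The groups did not overlap, and Ptf1a cKO replicate 3 was the highest. Itpr1 rose by 0.97 on the log2 scale (SE 0.15), or 1.96-fold, with an adjusted p of 0.00153 by limma, and the call held in each fit without 1 library.

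Itpr3 stood at 392, 351 and 368 in control and at 439, 516 and 571 in Ptf1a cKO libraries. The groups did not overlap, but the lowest Ptf1a cKO library lay close to the highest control library. Itpr3 rose by 0.45 on the log2 scale (SE 0.13), or 1.36-fold (95% interval 1.12 to 1.66), with an adjusted p of 0.0235 by limma. The call was lost without control replicate 1, 2 or 3 or Ptf1a cKO replicate 3 (adjusted p from 0.0501 to 0.0876), and with libraries at the same total without enzymes (0.28, adjusted p = 0.185).

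Itpr2 took a larger share of the family in every Ptf1a cKO library than in any control library. Compared per kilobase of exon, Itpr2 made up 42.9% ± 3.0 (SD, n = 3) of the IP3 receptor level in control and 62.5% ± 4.2 in Ptf1a cKO pancreata. The share of Itpr3 was 49.0% ± 2.4 in control and 30.2% ± 3.7 in Ptf1a cKO, and that of Itpr1 was 8.07% ± 0.70 and 7.27% ± 0.84. The groups did not overlap for Itpr2 and Itpr3 and overlapped for Itpr1. The summed level of the family was 84.0 ± 3.1 (SD) normalized counts per kb in control and 188 ± 12 in Ptf1a cKO pancreata.

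Log2 ratios within a library gave the same order. The ratio of Itpr3 to Itpr2 was −0.13, −0.39 and −0.07 in control and −1.77, −1.26 and −1.30 in Ptf1a cKO libraries. Its group means differed by −1.25, those of Itpr1 to Itpr2 by −0.70 and those of Itpr3 to Itpr1 by −0.55. In each of these 3 ratios the groups did not overlap, and the exact two-sided permutation p was 0.10, the smallest possible (0.188 after Benjamini-Hochberg adjustment over 15 ratios).

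**Figure D3:**
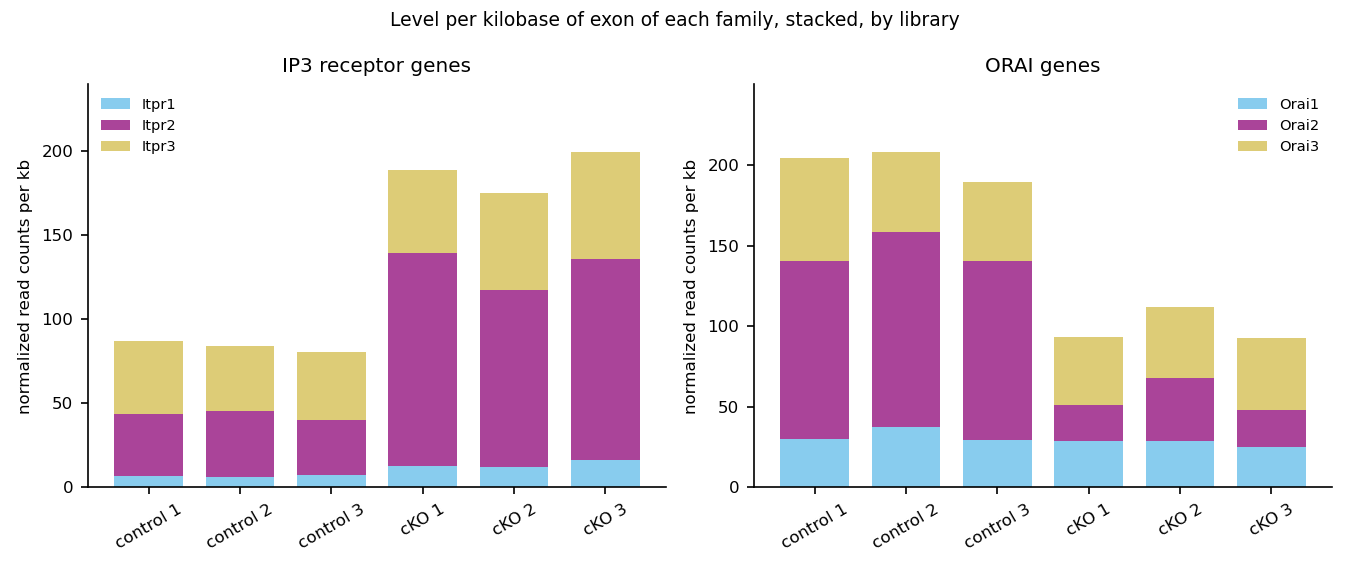
Level per kilobase of exon (vertical axis, normalized read counts per kb, linear, from 0) of the IP3 receptor genes (left) and the ORAI genes (right), stacked for each library. The IP3 receptor stack is 80.7 to 87.0 in control and 175 to 199 in Ptf1a cKO libraries, mostly through Itpr2. The ORAI stack is 190 to 208 in control and 92.8 to 112 in Ptf1a cKO libraries, mostly through Orai2. The heights, but not the shares within a stack, depend on the scaling.

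The list of release channels and partners of the IP3 receptor named 26 other genes, and 16 were in the table. No ryanodine receptor gene was among those 16, of which 3 rose (7 without Ptf1a cKO replicate 2) and 6 fell. These are 18.8% and 37.5%, against 17.1% and 16.8% of all genes. Under the same-total scaling 5 of the 6 falls turned sign. Ahcyl2, a relative of the IP3 receptor inhibitor IRBIT, rose from 433 to 512 in control to 1149 to 1565 in Ptf1a cKO libraries, or 1.53 in log2 (SE 0.14, adjusted p = 1.43e-04). Itpripl2 (0.64) and Itpripl1 (1.44), named for their likeness to an IP3 receptor interacting protein, were higher as well, with adjusted p of 0.00384 and 0.0157. Itpripl1 was at most 16.3 in control and, like Sctr, was in the table only through its Ptf1a cKO libraries. Bok, a BCL2 family protein that binds IP3 receptors, went from 240 to 273 in control to 44.0 to 91.3 in Ptf1a cKO libraries. It fell by 2.04 (SE 0.23, adjusted p = 3.29e-04) and kept its sign under the same-total scaling (−0.59). Lrmp (−1.02), a membrane protein of the endoplasmic reticulum, and Tmem38b (−0.82), a potassium channel that balances charge during calcium release, fell with adjusted p of 0.00449 and 0.00546. These values too are from limma.

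By the same measure of likeness, the 5 genes whose profile over the 6 libraries was most like that of Itpr2 were 8430419L09Rik (0.0797), Slc44a4 (0.0872), Wdr60 (0.0986), Cd14 (0.116) and Rnpc3 (0.118). They rose by between 1.51 and 1.71 on the log2 scale. Slc44a4 encodes a choline transporter family member of epithelia and Cd14 a monocyte and macrophage receptor. Wdr60 and Cd14 were at or below 17.3 normalized counts in the control libraries. Like Sctr, both were in the table only through their Ptf1a cKO libraries and had to differ. Likeness over 6 libraries of 2 groups mostly measures the size of the group difference.

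Store-operated entry was represented by Stim1, the calcium sensor of the endoplasmic reticulum, and Orai1, the channel it opens. Stim1 stood at 336, 351 and 242 in control and at 311, 338 and 291 in Ptf1a cKO libraries. The groups overlapped, and control replicate 3 was the lowest of all. The log2 fold change was 0.03 ± 0.15 (SE), with an adjusted p of 0.885 by limma and a 95% interval of the fold from 0.804 to 1.30. Its sign turned without control replicate 3 (−0.13) and without Ptf1a cKO replicate 2 (−0.02).

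Orai1 stood at 56.9, 70.8 and 55.3 in control and at 54.5, 53.7 and 47.3 in Ptf1a cKO libraries. The groups did not overlap, and the nearest libraries of the groups lay less than 1 normalized count apart. The log2 fold change was −0.22 ± 0.16 (SE), with an adjusted p of 0.332 by limma and a 95% interval of the fold from 0.667 to 1.11.

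The paralog Orai2 was the entry gene with the largest difference. It stood at 449, 491 and 452 in control and at 90.8, 160 and 93.2 in Ptf1a cKO libraries. Ptf1a cKO replicate 2 was the highest of its group and lay well below the controls. Orai2 fell by 2.03 on the log2 scale (SE 0.20, adjusted p = 2.03e-04 by limma) and kept its sign under the same-total scaling (−0.56). Orai3 was at 106 to 136 in control and 89.9 to 95.7 in Ptf1a cKO libraries and did not pass the threshold (−0.30 ± 0.14 SE, adjusted p = 0.116).

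Per kilobase, Orai2 made up 56.7% ± 2.4 (SD) of the ORAI level in control and 27.8% ± 6.3 in Ptf1a cKO pancreata. The share of Orai1 was 16.2% ± 1.7 and 28.0% ± 2.9, and that of Orai3 was 27.1% ± 3.7 and 44.2% ± 4.5. None of these 3 shares overlapped between the groups. The log2 ratio of Orai1 to Orai2 was higher by 1.84 in Ptf1a cKO libraries. Its exact permutation p was 0.10, the smallest possible (0.188 after adjustment over the 15 ratios). The log2 ratio of Orai1 to Orai3 differed by 0.08 and overlapped (exact p = 0.70).

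Stim2 fell by 0.38 on the log2 scale (SE 0.13) with an adjusted p of 0.0475 by limma, which was past the threshold in only 1 of the 6 fits that left out a library and whose sign turned under the same-total scaling (1.09). The log2 ratio of Stim1 to Stim2 overlapped between the groups (difference 0.42, exact p = 0.20). Across 13 other genes for calcium entry, 5 fell and 0 rose by limma, and 0 were higher at an unadjusted p under 0.05. The falls were 38.5% of the list, against 16.8% of all genes lower and 17.1% higher, and they numbered 3 without control replicate 2. Under the same-total scaling 3 of the 5 falls turned sign. Trpv6, an epithelial calcium channel, went from 83.6 to 107 in control to 21.3 to 36.6 in Ptf1a cKO libraries and fell by 1.70 in log2 (adjusted p = 5.31e-04), with a value of −0.31 under that scaling. Cacna1d, a voltage-gated calcium channel, fell by 0.55 (adjusted p = 0.00496).

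Neither pump gene among the 10 passed the threshold. Atp2a2 encodes SERCA2, which returns calcium to the endoplasmic reticulum. It stood at 1658, 1662 and 1631 in control and at 1490, 1637 and 1546 in Ptf1a cKO libraries. The groups overlapped by a few counts. The log2 fold change was −0.08 ± 0.11 (SE), with an adjusted p of 0.579 by limma and a 95% interval of the fold from 0.795 to 1.12, the narrowest of the 10 genes.

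Atp2b1 encodes a plasma membrane calcium pump. It stood at 246, 181 and 156 in control and at 229, 220 and 325 in Ptf1a cKO libraries, with control replicate 1 above 2 of the Ptf1a cKO libraries. The log2 fold change was 0.40 ± 0.20 (SE), with an adjusted p of 0.143 by limma and a 95% interval of the fold from 0.970 to 1.81. Ptf1a cKO replicate 3 was the highest of the 6.

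The pump genes were set against the release channel genes within a library. The log2 ratio of Atp2a2 to Itpr2 was 1.95, 1.86 and 2.08 in control and −0.01, 0.40 and 0.13 in Ptf1a cKO libraries. The difference was −1.79, which is a ratio of 0.290 of the control ratio, and the groups did not overlap (exact two-sided permutation p = 0.10, the smallest possible). For Atp2a2 to Itpr3 the difference was −0.54, again without overlap (exact p = 0.10). Both p-values were 0.188 after adjustment over the 15 ratios. For Atp2a2 to Atp2b1 it was −0.50, and the groups overlapped (exact p = 0.20).

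The SERCA paralog Atp2a3 varied within the groups, with 80.4, 88.9 and 188 in control and 141, 57.7 and 309 in Ptf1a cKO libraries. It was not called (0.30 ± 0.53 SE, adjusted p = 0.689 by limma). The summed islet markers were also highest in control replicate 3 among the controls and lowest in Ptf1a cKO replicate 2. Their highest sum was in a control library (43386, against at most 34164 in Ptf1a cKO), while Atp2a3 was highest in Ptf1a cKO replicate 3. The part of islets in this was not tested. Atp2b4 (0.40, adjusted p = 0.290) and Atp2c1 (−0.15, adjusted p = 0.290) did not pass the threshold.

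Of 8 other pump and exchanger genes, 1 rose and 2 fell (12.5% and 25%, against 17.1% and 16.8% of all genes). Atp2c2, a secretory pathway calcium pump, went from 233 to 281 in control to 34.2 to 96.4 in Ptf1a cKO libraries and fell by 2.01 in log2 (SE 0.30, adjusted p = 0.00124), keeping its sign under the same-total scaling (−0.57). Slc24a6, the mitochondrial sodium and calcium exchanger, fell by 0.62 (adjusted p = 0.0118), with 0.84 under that scaling. Slc8a1, a sodium and calcium exchanger of the plasma membrane, rose by 1.03 (SE 0.20, adjusted p = 0.00418). None of 13 genes for mitochondrial calcium uptake was called by limma, and at an unadjusted p under 0.05 the counts were 0 higher and 2 lower. There was 1 lower call with a filter at a mean of 5 or with the median of ratios, and there were 2 with the same total without enzymes.

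Per kilobase, the order of the 10 genes in control pancreata was Cckar (2009 ± 193 normalized counts per kb, SD), Atp2a2 (313 ± 3.2), Stim1 (69.6 ± 13), Itpr3 (41.2 ± 2.3), Itpr2 (36.0 ± 3.1), Orai1 (32.5 ± 4.5), Atp2b1 (27.3 ± 6.5), Chrm3 (25.2 ± 2.5), Chrm1 (12.0 ± 0.17) and Itpr1 (6.77 ± 0.45). Neighbours from Itpr2 to Chrm3 in this order overlapped in range, and the other neighbours did not. In Ptf1a cKO pancreata Itpr2 (117 ± 11) followed Cckar (1801 ± 233) and Atp2a2 (295 ± 14), with no overlap with its neighbours. Itpr1 (13.7 ± 2.4) had passed Chrm1 (7.81 ± 1.4), and the next genes after Itpr2 were Stim1 (70.5 ± 5.3), Itpr3 (56.6 ± 7.3), Atp2b1 (36.2 ± 8.2), Orai1 (27.6 ± 2.1) and Chrm3 (23.8 ± 3.5). Only Orai1 and Chrm3 overlapped among neighbours there.

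Of 13 genes for calcium-binding proteins of the endoplasmic reticulum, 4 rose and 1 fell (30.8% and 7.69%, against 17.1% and 16.8% of all genes). Only 1 rose without control replicate 1 or 2, and with the same total without enzymes 2 rose and 2 fell. Calr, the lumenal buffer calreticulin, went from 1870 to 2416 in control to 2862 to 3211 in Ptf1a cKO libraries, a rise of 0.56 (SE 0.14, adjusted p = 0.0145 by limma). Rcn3 (1.01, adjusted p = 0.00369) and Nucb1 (0.57, adjusted p = 0.0133) rose as well. Nucb2, which encodes nucleobindin 2, went from 2918 to 3707 in control to 1324 to 1819 and fell by 1.09 (SE 0.16, adjusted p = 0.00136), with a value of 0.41 under the same-total scaling. The calls for Calr and Nucb1 held in 4 of the 6 fits without 1 library.

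Of 30 genes for cytosolic calcium sensors, effectors and members of their families, 4 rose and 7 fell (13.3% and 23.3%, against 17.1% and 16.8% of all genes). Among the falls, 5 turned sign under the same-total scaling. With the same total without enzymes 0 rose and 11 fell. Rises numbered 0 without control replicate 1, 1 without control replicate 2 or replicate 3 of either group, and 2 with the first Ptf1a cKO library left out. Camkk1, a kinase that activates calmodulin-dependent kinases, went from 140 to 174 in control to 15.8 to 40.6 in Ptf1a cKO libraries. It fell by 2.57 in log2 (SE 0.28, adjusted p = 3.31e-04 by limma). Camk1d, a calmodulin-dependent kinase, fell by 1.62 (SE 0.18, adjusted p = 3.49e-04), and both kept their sign under that scaling. The atypical protein kinase C gene Prkcz fell by 0.98 (adjusted p = 0.00150). The calmodulin gene Calm2 (0.47, adjusted p = 0.0140), the tonicity-responsive factor gene Nfat5 (0.58, adjusted p = 0.0256) and the protein kinase C delta gene Prkcd (0.44, adjusted p = 0.0263) rose. Without 1 library at a time these calls held in 5, 1 and 2 of the 6 fits.

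On the cAMP side, 3 of 18 genes rose and 4 fell (16.7% and 22.2%, against 17.1% and 16.8% of all genes). Each of the 4 falls turned sign under the same-total scaling. Adcy6 (0.56 ± 0.12 SE, adjusted p = 0.00642 by limma) and Adcy7 (1.52 ± 0.31 SE, adjusted p = 0.00578) rose, and Adcy9 (−0.86 ± 0.12 SE, adjusted p = 9.84e-04) fell. Adcy7 is abundant in blood cells, and its highest value, 198, was that of Ptf1a cKO replicate 3, which also held the highest summed leukocyte markers. For only 12.7% of all called genes was replicate 3 the Ptf1a cKO library nearest the control mean. The part of leukocytes in the rise of Adcy7 was not tested. The phosphodiesterase gene Pde4a (−1.36, adjusted p = 0.00139) and the protein kinase A catalytic gene Prkaca (−0.52, adjusted p = 0.00895) fell, while Pde3b (0.39, adjusted p = 0.0287) rose, a call kept in 2 of the 6 fits without 1 library.

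Of 8 genes for channels of fluid secretion, 1 rose (2 with the 75th percentile scaling) and 3 fell. These are 12.5% and 37.5%, against 17.1% higher and 16.8% lower of all genes. Aqp12, an aquaporin of acinar cells, went from 4721 to 5176 in control to 381 to 1199 in Ptf1a cKO libraries and fell by 2.89 in log2 (SE 0.33, adjusted p = 3.90e-04 by limma). Ano1, the calcium-activated chloride channel of the apical membrane, was at 467 to 537 in control and 146 to 258 in Ptf1a cKO libraries and fell by 1.46 (SE 0.20, adjusted p = 7.72e-04), with 0.02 under the same-total scaling. Aqp8, a further aquaporin, fell by 1.90 (SE 0.46, adjusted p = 0.0130), and both aquaporin genes kept their sign under that scaling (−1.40 and −0.44). Kcnq1, a potassium channel, rose from 428 to 537 in control to 1027 to 1868 in Ptf1a cKO libraries, or 1.56 in log2 (SE 0.20, adjusted p = 6.84e-04).

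**Figure D4:**
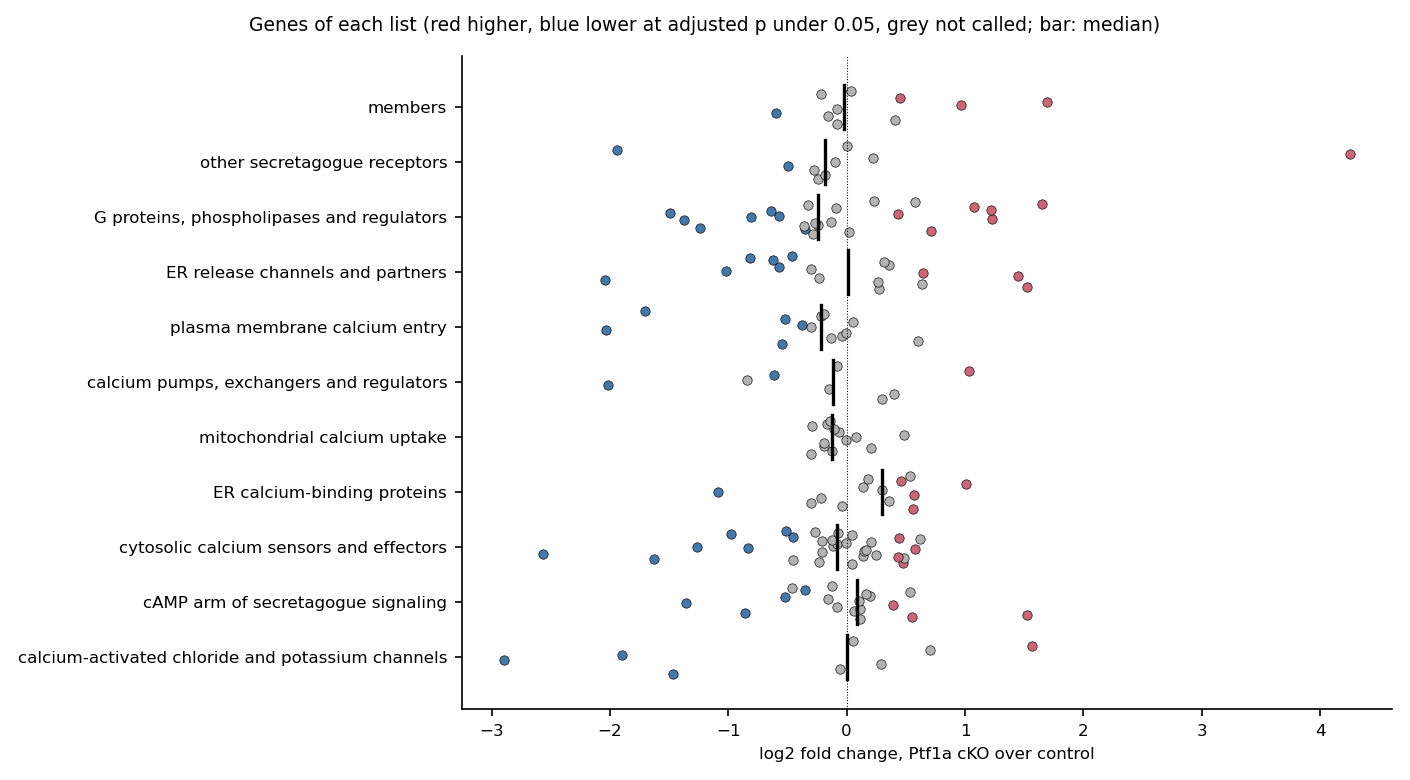
Log2 fold change of Ptf1a cKO over control (horizontal axis) of each gene in the 10 genes and in 10 lists around them (rows), with red for higher and blue for lower at an adjusted p under 0.05 and grey for the rest. Black bars are the medians of the lists. The lists scatter on both sides of 0, with Sctr (4.25) furthest right and Aqp12 (−2.89) furthest left. With libraries scaled to the same total, all points move right by about the shift of the median gene (1.48), which takes 27 of the 37 blue points of the lists past 0.

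The 10 lists together named 222 genes, of which 151 were in the table. Of these 151, 23 rose and 37 fell. These are 15.2% and 24.5%, against 17.1% and 16.8% of all genes, and the median log2 fold change was −0.09. Of the 23 that rose, 3 were in the table only through their Ptf1a cKO libraries. The Ptf1a cKO library nearest the control mean was replicate 2 for 39 of the 60 called genes (65%) and for 60.2% of all called genes. For the 4 called among the receptor, channel and pump genes described first, it was replicate 2 for Itpr1 and Itpr2 and replicate 1 for Itpr3 and Chrm1.

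The 10 genes were also read against the acinar enzymes, since enzyme genes fell while most of the 10 were not called. Of the 32 enzyme genes 23 fell and 1 rose (71.9% and 3.12%, against 16.8% and 17.1% of all genes). Their median log2 fold change was −2.11, and 8 did not pass the threshold, Ctrb1 among them (−1.93, adjusted p = 0.0864 by limma). The summed enzyme level was 15013400 to 18236200 in control and 2180390 to 5938120 in Ptf1a cKO libraries. Cela2a, a pancreatic elastase gene, fell by 3.11 (adjusted p = 0.00896). Relative to the median log2 enzyme level of the same library, none of the 10 genes overlapped between the groups, and the Ptf1a cKO libraries were the higher ones for each. This was so for 95.9% of 10232 genes with a value above 0 in every library, and the median difference of those genes was 2.04. The difference was 3.70 for Itpr2, which lay above 97.4% of those genes, and 3.00 for Itpr1 (91.6%). It was 2.45 for Itpr3, 2.41 for Atp2b1, 2.04 for Stim1, 1.92 for Atp2a2, 1.91 for Chrm3, 1.84 for Cckar, 1.77 for Orai1 and 1.37 for Chrm1, which lay above 11.1%. Each exact two-sided permutation p was 0.10, the smallest possible.

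Markers of other cells moved with genotype beside these results. Their counts are to be read against all genes, of which 17.1% were higher and 16.8% lower. Of 12 duct markers 8 rose and 0 fell, and their summed level was 5857 to 6605 in control and 28656 to 112407 in Ptf1a cKO libraries, mostly through Spp1, followed by Muc1. Of 11 fibroblast and stellate markers 10 rose (summed level 3287 to 3872 in control and 6323 to 11625 in Ptf1a cKO), led in level by Col3a1 and Dcn. Of 9 leukocyte markers 6 rose (443 to 742 and 1159 to 2517), led by Lyz2 and Csf1r. Of 6 smooth muscle markers 3 rose, led by Myh11 and Acta2 (291 to 332 and 353 to 689). None of these 4 lists held a marker that fell, and 3 of the duct and 1 of the leukocyte markers that rose were in the table only through their Ptf1a cKO libraries. Their part in the values of Itpr1, Itpr2, Itpr3, Sctr and the other genes that rose was not tested.

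Of 8 acinar transcription factor genes 4 fell, Rbpjl by 2.29 (adjusted p = 0.00356 by limma), while Xbp1 was not called (−0.04). Over all genes, 16.8% were lower and 17.1% higher, which is also the measure for the lists that follow. Of 8 endothelial markers 2 rose, and the most abundant, Pecam1, was not called (−0.10). Of 11 islet markers 0 were called by limma and 0 had an unadjusted p under 0.05, though their summed level, mostly Ins2 and Ins1, ranged from 11756 to 43386 in control and from 5996 to 34164 in Ptf1a cKO libraries. Of 4 fat markers 1 was higher, Cfd, which was in the table only through its Ptf1a cKO libraries, and Fabp4 was not called. Of 6 proliferation markers 3 rose, Mki67 among them (2.06, adjusted p = 0.0241), and Mcm2 was not called. Of the 3 that rose, 1 other than Mki67 was in the table only through its Ptf1a cKO libraries. No listed nerve or Schwann marker was among the genes analysed here.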

How the data were processed

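RNA-seq of whole mouse pancreas was analysed for 3 control and 3 Ptf1a cKO mice. The submitters' processing notes name TopHat2 2.0.4, Bowtie 0.12.7.0, SAMtools 0.1.18.0, HTSeq 0.6.0 and build mm9. The authors tested their data with edgeR, using its trimmed mean of M-values scaling. Whether the deposited values carry that scaling is not stated in the sources used here. The strand setting and the annotation used for counting are not given in the sources used here. The deposited values are a signal, taken to be normalized read counts per gene symbol whose scaling is not given in the sources used here. The study states aligned reads per library, but the scaled values hold no whole reads, so the counts behind a value are unknown and no counting intervals are given. The highest value of a gene was never under 27.6 in the 10245 genes of the table. Another 3 entries that name no gene took 75.7% to 82.6% of a library's values and were left out.

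All values were divided by 13.6393, and log2(value + 0.25) was fitted with limma 3.58.1 in R 4.3.3 (lmFit, eBayes with a trend, no covariate, two-sided). The pseudocount equals 3.41 normalized counts, so fold changes of low genes are understated. P-values were adjusted by Benjamini-Hochberg over all genes. A mean of at least 0.25 was required. Errors are SD over mice or SE of the fit. Ratios within a library were tested by exact permutation in Python 3.11.15 with SciPy 1.17.1. Levels per kilobase used exon lengths of GENCODE M21, an annotation of GRCm38, matched by symbol. Promoters are RefSeq windows of GRCm38.p6, and no coordinate of mm9 is given. The fit was tested on simulated data in which few genes changed and the noise was independent between genes. In these libraries 33.9% of genes were called, so that run does not cover their setting.

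The 10 genes and the lists were chosen with earlier results of these data known. Named are the 10 genes, Ptf1a, up to 3 genes with the smallest adjusted p per list and direction, paralogs of the 10, the 5 genes most like Itpr2, and the 2 most abundant genes of each cell type list. Vipr2, Atp2c1 and Itpkc were chosen after their values were seen. Alternatives were other pseudocounts, filters, scalings, limma settings, a replicate block, sex as a covariate, and each library left out.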

Additional observations from a re-analysis of the deposited data

How the results depend on the processing

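Itpr1 and Itpr2 kept their direction and stayed past the threshold under every alternative run. Scaling libraries to the same total gave 10 higher and 0 lower of the 10 genes, and 132 higher and 5 lower genes in the lists. It gave log2 fold changes of 1.34 for Cckar, 0.82 for Chrm1, 1.36 for Chrm3, 1.41 for Atp2a2, 1.19 for Orai1, 1.88 for Atp2b1 and 1.51 for Stim1, with the median gene at 1.48. The same total without acinar enzymes gave 14 higher list genes, 0.28 for Itpr3 and −0.14 for Stim1. With it, 1082 genes were higher and 2412 lower, against 1751 and 1724. A filter at a mean of 5 removed Chrm1 and Orai1, leaving 0 lower of the 10 genes.

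Leaving out 1 library at a time gave 2 to 3 higher and 0 to 1 lower of the 10 genes. In the lists it gave 13 to 26 higher and 29 to 34 lower genes, the fewest higher ones without control replicate 1 (13) or 2 (15). Log2 fold changes ranged from −0.72 to −0.47 for Chrm1, from −0.19 to 0.00085 for Chrm3, from 0.36 to 0.55 for Itpr3 and from −0.13 to 0.13 for Stim1. Log2 ratios ranged from −0.083 to 0.25 for Orai1 to Orai3, from −1.04 to 0.21 for Atp2a2 to Atp2a3 and from −0.33 to 0.24 for Atp2b1 to Atp2b4, the last being 0.0047 with a pseudocount. The cause of these changes was not tested, except that fewer libraries enter each such fit.

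Same-numbered mice share only a number. Their deviations correlated with r of 0.0391, 0.134 and 0.144 across genes, and Ptf1a cKO replicate 1 correlated best with control replicate 2. With the replicate number as a block, Itpr2 was 1.69 (adjusted p = 1.58e-04), Itpr3 had an adjusted p of 0.0336 and Chrm1 of 0.0284, and no call among the 10 genes changed. Precision is limited by 3 mice a group, since the values carry no depth.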
